A study of Mus musculus with 24 samples.

Results

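The genes described here are 40 genes of mitosis and the mitotic spindle, chosen by gene symbol from 25965 gene entries in the deposited expression table of male mouse embryonic stem cells (mESCs). All 40 were listed, and all 40 passed the filter of an average of 0 or more in log2 rpm (a gene's reads scaled to a common library total, on a log2 scale), beside 13296 genes in all. By role they comprised 8 entry kinases and cyclins with their partners, 3 partners of the anaphase-promoting complex, 5 spindle checkpoint genes, 7 kinetochore genes, 4 members of the chromosomal passenger complex, 9 spindle motors and microtubule proteins, and 4 genes of the mitotic chromosome and cleavage furrow.

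Cells enter mitosis when B-type cyclins activate the kinase Cdk1. The spindle then attaches to chromosomes through kinetochores, and the spindle checkpoint holds back the anaphase-promoting complex, a ubiquitin ligase, until attachment is complete. Transcripts of these genes accumulate in G2 and mitosis through the MuvB, B-Myb and Foxm1 proteins, many of them through a promoter element called the CHR (cell cycle genes homology region) and nearby CCAAT boxes, so in many tissues their level follows the share of dividing cells. Mouse ESCs divide rapidly and remain in cycle as they begin to differentiate.

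The study used this time course in male cells in asking whether depletion of *Smarcc1* or *Smarca4* delays differentiation. Smarcc1 is a core subunit and Smarca4 (Brg1) the ATPase of the BAF chromatin remodelling complex. C57/Bl6 mESCs were expanded in 2i medium, weaned into differentiation medium, transduced with shRNA on day 2, selected with puromycin on day 3 and harvested on days 4, 5, 6 and 7. The groups were a nonsilencing hairpin (Nons, 1 library per day), *Smarcc1* knockdown (hairpins Smarcc1.6 and Smarcc1.7) and *Smarca4* knockdown (hairpins Smarca4.4 and Smarca4.6), 20 libraries in all, and all of them, controls included, had been through viral transduction and drug selection. The 2 hairpins of a gene were taken as its replicates. The genotype label of the *Smarca4* hairpin libraries names a Smarcc knockdown, so their titles were followed, and *Smarca4* itself was low in them. The labels do not say that hairpins or days came from separate cultures, so the p-values measure the spread between these libraries, and the spread of Nons was taken to equal that of the hairpin pairs.

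Read totals recovered from the values were 6829596 for Smarca4.4 on day 5 and 15717152 to 27472885 for the other libraries, and 3 reads corresponded to 0.109 to 0.439 rpm. The lowest read number of any member in any library was 108, for *Pttg1*. *Smarcc1* fell to between 23.7% and 60.1% of same-day Nons in its 8 knockdown libraries, with a log2 fold change of -1.33 ± 0.21 (SE, adjusted p = 0.00115). *Smarca4* fell to between 21.6% and 55.3% in its own 8, with a log2 fold change of -1.79 ± 0.29 (SE, adjusted p = 0.00277). *Smarca4* lost its call without hairpin Smarca4.6 (adjusted p = 0.0685) and without day 7 (0.0558), with its direction unchanged. The cells were checked against markers: the sum of 8 pluripotency genes went from between 3493 and 4116 rpm on day 4 to between 911 and 1638 rpm on day 7. Of 10 early differentiation markers, *T*, *Mixl1*, *Gata6* and *Sox17* were below the filter on low values. Of the other 6, *Gata4* and *Nes* rose between days 4 and 7 (log2 fold changes of 2.57 and 2.58), *Otx2* fell (-0.93), and *Eomes*, *Fgf5* and *Pax6* did not pass. A set of 5 libraries stood apart in that long transcripts were low relative to short ones: over all genes, the mean of transcripts of at least 4522 bases minus that of transcripts of at most 1951.5 bases was -0.84 in Smarca4.6 and -0.72 in Smarcc1.6 on day 5, and -0.60 in Smarcc1.6, -0.54 in Nons and -0.52 in Smarca4.6 on day 6, on the log2 scale, relative to each gene's mean. In the other libraries this difference lay between -0.15 and 0.59.

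Together the 40 mitosis and spindle genes took 0.661% to 0.742% of reads in Nons, 0.645% to 0.762% in *Smarcc1* knockdown and 0.673% to 0.778% in *Smarca4* knockdown. The mean of the 40 log2 rpm values was 7.07 to 7.16 on day 4 and 7.05 to 7.15 on day 7. In bulk libraries, a change in the number of cells in mitosis cannot be told apart from a change in RNA per cell. Because the values are not scaled to transcript length, each gene is compared only with itself across libraries.

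Single members varied between 1.31-fold and 4.12-fold from their lowest to their highest library, and 15 of 40 varied by less than 2-fold. *Ccna2*, cyclin A2, the cyclin of S phase and early mitosis, was the steadiest: it ranged from 266 rpm in Nons on day 4 to 348 rpm in Nons on day 7, with a median of 300.2 rpm over the 20 libraries. *Top2a*, the topoisomerase that untangles sister chromatids, was also steady, from 778 rpm in Smarca4.6 on day 5 to 1226 rpm in Nons on day 5. *Mki67*, the coat protein of mitotic chromosomes known as the proliferation marker Ki-67, had the widest range, from 77.4 rpm in Smarcc1.6 on day 5 to 319 rpm in Smarcc1.7 on day 6. Both extremes of *Mki67* were thus in hairpins against the same gene. Of the 40 members, 13 had their lowest value and 7 their highest value in Smarcc1.6 on day 5, and 9 had their highest value in Smarca4.6 on day 5. These are 2 of the libraries that were low in long transcripts.

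**Figure D1:**
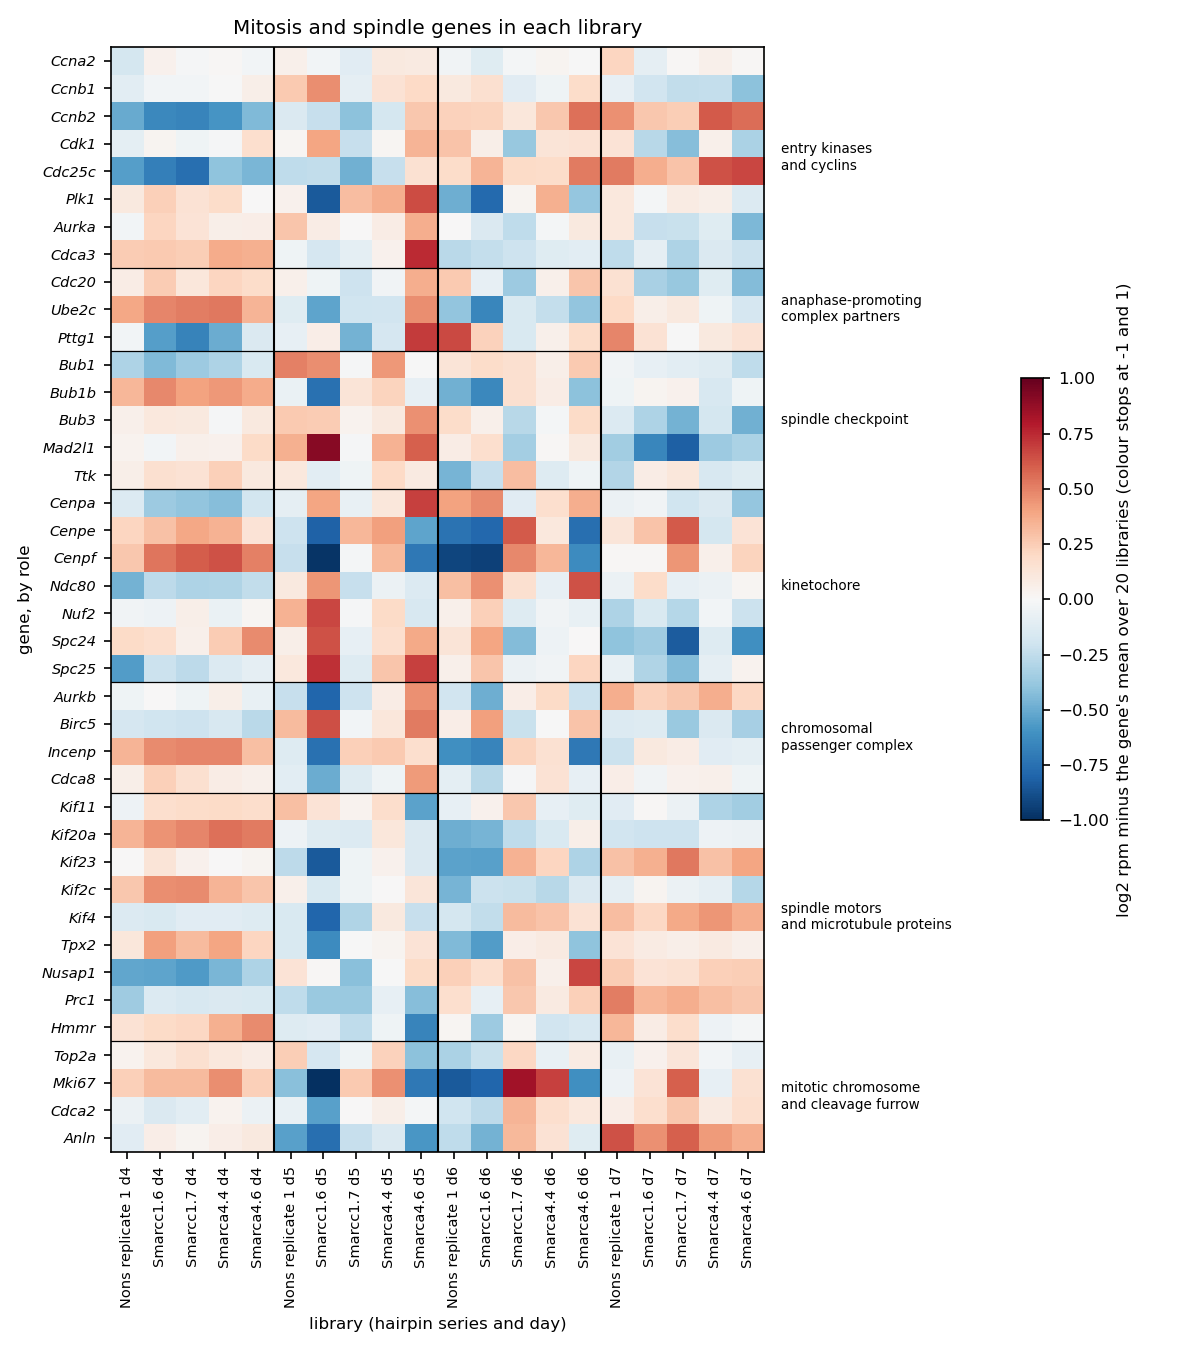
Log2 rpm of the 40 members (rows, by role) in the 20 libraries (columns, by day and hairpin series), each minus the gene's mean over all libraries; red is above and blue below the mean. *Cdc25c*, *Ccnb2* and *Nusap1* are low in all 5 day 4 libraries and high in all 5 day 7 libraries, *Kif20a* and *Kif2c* are high on day 4, and *Mki67* and *Cenpf* are lowest in Smarcc1.6 on day 5, Nons and Smarcc1.6 on day 6.

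Knockdown of *Smarcc1* left no member past the threshold. Averaged over the 4 days, 0 of 40 members passed an adjusted p of 0.05 (limma, Benjamini-Hochberg over 13296 genes) in *Smarcc1* knockdown against Nons, where 10.6% of all genes tested did, 7.54% higher and 3.08% lower. With the filter raised to an average of 10 rpm, which all 40 members passed, 5.46% of genes were called, again without a member. With the libraries of a hairpin series treated as a block, 4.55% of all genes were called and no member (smallest adjusted p = 0.376). At an unadjusted p under 0.05 there were 2 members, *Pttg1* and *Cdc20*, both lower. At least 10.6% of all genes were under that level, so 2 of 40 is not an excess. The log2 fold changes ran from -0.44 for *Pttg1* to 0.33 for *Mki67*, with 18 of 40 above 0 and a median of -0.04, beside a median of 0.06 over all genes tested. In this fit, which takes the 4 days of a hairpin as independent, the 95% interval lay within 1 log2 unit of 0 for 39 of 40 members. It lay within 0.5 for 31 of 40, with a median half-width of 0.30. The exception at 1 log2 unit was *Mki67*, whose interval reached 1.104. Over all genes, the difference between the 2 *Smarcc1* hairpins correlated between days 5, 6 and 7 at 0.44 to 0.82, and with day 4 at no more than 0.06. These intervals may therefore be too narrow.

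*Pttg1* and *Cdc20* belong to the 3 partners of the anaphase-promoting complex, all 3 of which had log2 fold changes below 0 in *Smarcc1* knockdown. *Pttg1* encodes securin, the inhibitor of separase that is destroyed at anaphase (chr11:43420250-43426251, minus strand, mm10). It stood at 17.4, 16.8, 28.0 and 24.9 rpm in Nons on days 4, 5, 6 and 7, at 12.1, 18.6, 20.8 and 19.6 rpm in Smarcc1.6, and at 11.2, 12.8, 15.9 and 17.7 rpm in Smarcc1.7. Smarcc1.6 on day 5 was the 1 of 8 knockdown libraries above its Nons control. The log2 fold change was -0.44 ± 0.17 (SE, 95% interval -0.81 to -0.06) with an adjusted p of 0.148. *Cdc20*, the activator that the spindle checkpoint restrains (chr4:118432901-118437352, minus strand), stood at 340, 333, 386 and 358 rpm in Nons, at 384, 312, 304 and 256 rpm in Smarcc1.6, and at 347, 279, 251 and 247 rpm in Smarcc1.7. Both hairpins were above Nons on day 4 and below it on days 5, 6 and 7, and the log2 fold change was -0.27 ± 0.12 (SE), adjusted p = 0.193. The other partner, *Ube2c*, the E2 enzyme that starts ubiquitin chains, had a log2 fold change of -0.07 ± 0.14 (SE).

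The count of 0 in *Smarcc1* knockdown changed under 3 settings. When the trend with transcript length was removed from each library, a step added after seeing the data, *Pttg1* (log2 fold change -0.35, adjusted p = 0.0302) and *Cdc20* (-0.28, adjusted p = 0.0387) passed as lower and 16.4% of the 11423 genes with a length passed. Without day 5, *Pttg1* alone passed (-0.54, adjusted p = 0.0228), beside 14.2% of all genes. Without the 4 hairpin libraries low in long transcripts, also chosen after seeing the data, 22 members passed, 11 higher and 11 lower, while 57.1% of all genes did, with the spread then estimated from the hairpin pairs of days 4 and 7 alone. That setting kept Nons on day 6, which was also low in long transcripts, as the only control of its day.

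Knockdown of *Smarca4* likewise left 0 of 40 members past the threshold, beside 6.71% of all genes tested (4.75% higher and 1.96% lower), and none reached an unadjusted p under 0.05. With the filter at 10 rpm, 2.96% of genes were called, again without a member. With the hairpin series as a block, 1.94% of all genes were called and no member (smallest adjusted p = 0.637). Log2 fold changes ran from -0.22 for *Pttg1* to 0.34 for *Mki67*, with 27 of 40 above 0. Their median was 0.06, beside 0.06 over all genes tested. In the same fit, with days taken as independent, the 95% interval again lay within 1 log2 unit of 0 for 39 of 40 members. It lay within 0.5 for 31. *Kif20a*, a kinesin that acts at the central spindle in cytokinesis, came nearest to the threshold, at 0.20 ± 0.10 (SE, adjusted p = 0.276). Without the 4 hairpin libraries low in long transcripts 13 members passed, 12 of them higher, while 42.8% of all genes did. Nons on day 6, itself low in long transcripts, was still the only control of its day there.

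**Figure D2:**
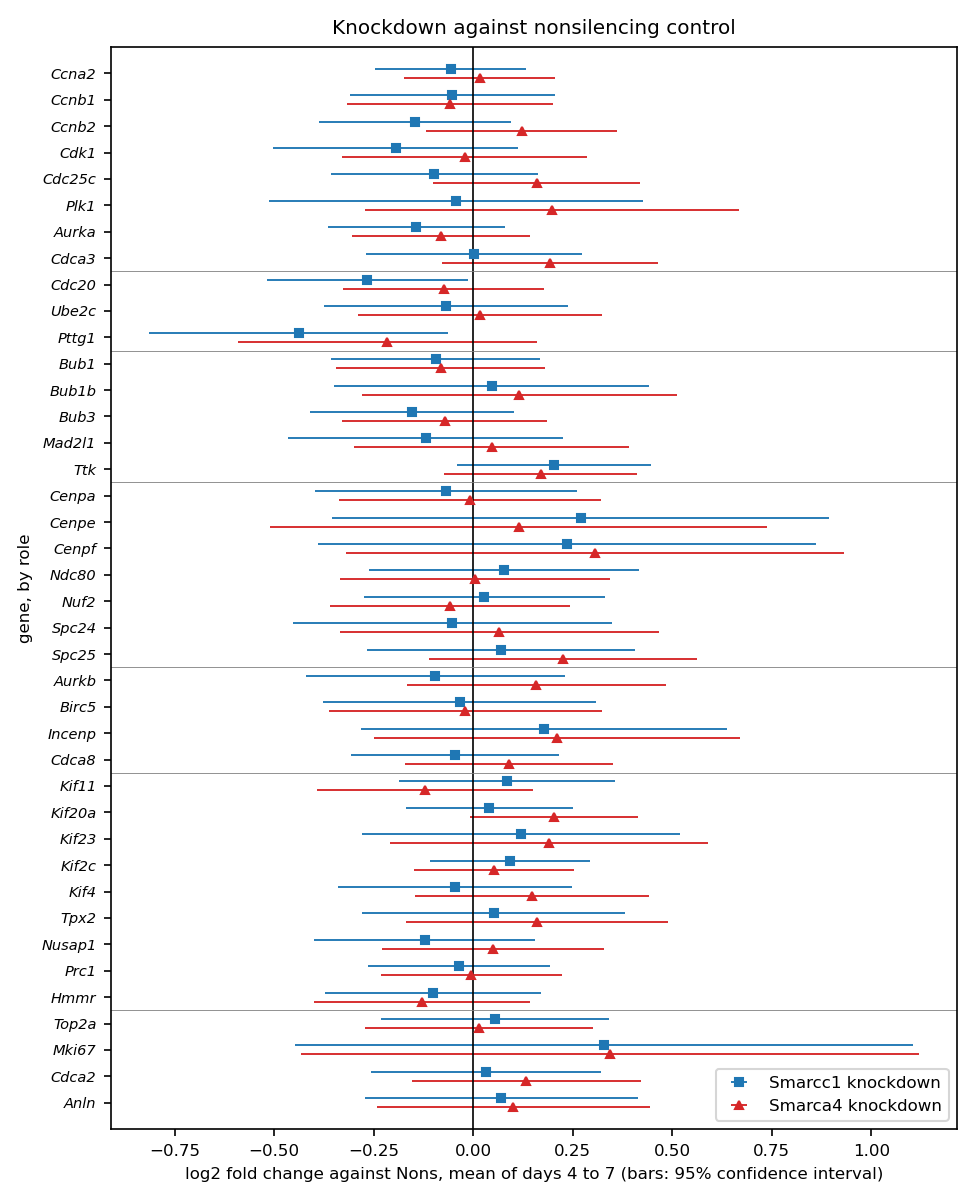
Log2 fold change against Nons, averaged over days 4 to 7, for each member (rows, by role) in *Smarcc1* knockdown (blue squares) and *Smarca4* knockdown (red triangles), with 95% confidence intervals from the limma fit. Most points lie close to 0, *Pttg1* reaches -0.44 in *Smarcc1* knockdown, and *Mki67*, *Cenpf* and *Cenpe* have the widest intervals; both comparisons use the same 4 Nons libraries.

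In each role group, the member with the largest change in either knockdown remained short of the threshold. Among the entry kinases this was *Plk1*, the Polo-like kinase of spindle assembly, at 0.20 ± 0.22 (SE) in *Smarca4* knockdown. Among the checkpoint genes it was *Ttk*, the Mps1 kinase that starts checkpoint signalling. *Ttk* ranged from 48.0 to 71.3 rpm (median 61.6) in Nons, from 56.6 to 82.3 rpm (median 70.7) in *Smarcc1* knockdown and from 59.2 to 78.4 rpm (median 67.4) in *Smarca4* knockdown. These ranges overlapped, and its log2 fold changes were 0.20 ± 0.11 and 0.17 ± 0.11 (SE). Among the kinetochore genes it was *Cenpf*, a large coiled-coil protein of the outer kinetochore, at 0.31 ± 0.29 (SE) in *Smarca4* knockdown, and in the chromosomal passenger complex *Incenp*, its scaffold, at 0.21 ± 0.21 (SE).

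*Mki67* had the largest positive change in both knockdowns, 0.33 ± 0.36 and 0.34 ± 0.36 (SE), and its hairpins disagreed. It stood at 210, 133, 99.5 and 172 rpm in Nons on days 4, 5, 6 and 7. In *Smarcc1* knockdown it stood at 222, 77.4, 103 and 196 rpm with hairpin Smarcc1.6 and at 222, 214, 319 and 270 rpm with Smarcc1.7. In *Smarca4* knockdown it stood at 247, 244, 286 and 168 rpm with Smarca4.4 and at 210, 109, 117 and 198 rpm with Smarca4.6. The hairpins of each gene therefore lay together on day 4 and far apart on days 5 and 6, with 1 hairpin of each gene near or below Nons and the other above it. On these days *Mki67* had the widest gap between hairpins of all 40 members, -1.46 and -1.63 (Smarcc1.6 minus Smarcc1.7) and 1.17 and 1.30 (Smarca4.4 minus Smarca4.6) on the log2 scale. With 10061 bases it has, after *Cenpf* (11130 bases), the longest transcript of the members, and in each gene the lower hairpin on these days was the library low in long transcripts. With each library's trend of deviation from the gene means with transcript length removed, an alternative chosen after seeing the data, its changes were 0.06 and 0.20, and *Spc25* had the largest positive change instead, at 0.12 and 0.22 in *Smarcc1* and *Smarca4* knockdown.

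Counting libraries gave little separation. In *Smarcc1* knockdown no member was above same-day Nons in all 8 libraries, beside 8.69% of all genes, and 1 member, *Ccnb2*, was below in all 8, beside 5.17%. In *Smarca4* knockdown *Cdc25c* and *Cdca3* were above in all 8 libraries, beside 9.85% of all genes, and no member was below in all 8, beside 4.48%. *Ccnb2*, cyclin B2, and *Cdc25c*, the phosphatase that activates Cdk1, were also the 2 members at an unadjusted p under 0.05 when the knockdowns were set against each other. At least 4.09% of all genes were under that level. *Ccnb2* was 0.27 ± 0.09 lower (log2, SE, adjusted p = 0.138) and *Cdc25c* 0.26 ± 0.10 lower (adjusted p = 0.197) in *Smarcc1* than in *Smarca4* knockdown. No member passed the threshold in that contrast, where 4.09% of all genes did, 2.55% higher and 1.54% lower in *Smarcc1* knockdown. With the filter at 10 rpm the share of genes was 2.02%, again without a member. Without the shallow library Smarca4.4 on day 5, *Ccnb2* (-0.32), *Cdca3* (-0.28) and *Kif11* (0.30) passed, with adjusted p between 0.0302 and 0.0384. The share of all genes was then 8.02%. With the length trend removed *Ccnb2* (-0.23) and *Kif4* (-0.23) passed, beside 8.74% of all genes.

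The change from day 4 to day 7 was also compared between each knockdown and Nons, as an interaction. No member passed in *Smarcc1* knockdown (0.459% of all genes did, 0.444% higher and 0.015% lower) or in *Smarca4* knockdown (0.0827%, 0.0752% higher and 0.00752% lower), and none reached an unadjusted p under 0.05 in either. This comparison was imprecise, since it sets 2 hairpins against 1 Nons library on each day: the median half-width of the 95% interval was 0.84, and 15 of 40 intervals lay within 1 log2 unit of 0. The smallest adjusted p was 0.763 for *Smarcc1* and 0.9997 for *Smarca4*.

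Over the days of differentiation, single members changed in both directions. Between day 4 and day 7, 15 of 40 members (37.5%) passed the threshold, 7 higher and 8 lower, beside 64.5% of all genes tested (35.7% higher and 28.8% lower). The median change of the 40 was -0.10, beside 0.08 over all genes, and its sign depended on scaling: it was -0.28 with libraries centred on their median gene, -0.24 with the length trend removed and 0.03 with quantile normalization. All 5 libraries of day 7 lay above all 5 of day 4 for 11 members (beside 35% of all genes) and below them for 9 (beside 28.2%), and the days overlapped for 20. The members that rose included *Cdc25c*, *Ccnb2*, *Nusap1*, *Prc1*, *Pttg1* and *Anln*, and those that fell included *Spc24*, *Kif20a*, *Mad2l1*, *Cdca3*, *Kif2c* and *Ube2c*. The split of calls moved with scaling: with libraries centred on their median gene, which shifted the median of all genes from 0.08 to -0.09, 4 were higher and 14 lower, and with quantile normalization 8 were higher and 4 lower. *Ccnb2*, *Cdc25c*, *Nusap1*, *Prc1*, *Cdca3*, *Kif20a* and *Kif2c* passed in the same direction in all 17 alternatives run. *Spc24* lost its call without hairpin Smarca4.6 (adjusted p = 0.104), and *Mad2l1*, *Anln* and *Kif4* without either *Smarca4* hairpin (0.0649 to 0.101). *Mad2l1* also lost it with the length trend removed (0.104) and with quantile normalization (0.058). *Anln* (0.056) and *Kif4* (0.060) lost it with libraries centred on their median gene. *Pttg1*, *Bub3*, *Cdc20* and *Ube2c* lost it in 5 or 6 alternatives each, among them the removal of either *Smarcc1* hairpin. Over the same days 7 of 8 pluripotency markers fell. Of 5 fibroblast markers, *Col1a1*, *Col1a2* and *Pdgfrb* rose (3.67 to 5.67), *Dcn* fell (-1.65), and *Thy1* did not pass (-0.56), while their sum went from between 6.79 and 12.3 rpm to between 29.6 and 125.5 rpm. The part of these markers in the changes of the members was not tested.

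The largest rises were in 2 genes of Cdk1 activation. *Cdc25c* (chr18:34732997-34751533, minus strand) stood at 15.8 rpm in Nons, 14.4 in Smarcc1.6, 13.7 in Smarcc1.7, 17.5 in Smarca4.4 and 16.9 in Smarca4.6 on day 4. On day 7 it stood at 33.3, 29.8, 28.1, 36.0 and 36.7 rpm in the same order. All 5 day 7 libraries were above all 5 day 4 libraries, and the log2 fold change was 1.07 ± 0.13 (SE, adjusted p = 1.24e-05). *Ccnb2* (chr9:70407689-70421554, minus strand) stood at 110, 99.96, 98.8, 104 and 115 rpm on day 4, in that order of libraries, and at 214, 188, 185, 239 and 230 rpm on day 7. Its value was higher on each later day in all 5 hairpin series, and its log2 fold change was 0.99 ± 0.12 (SE, adjusted p = 1.20e-05). *Ccnb1*, the gene of the other main B-type cyclin, did not share this course: it stood at 294 to 329 rpm on day 4 and 237 to 299 rpm on day 7, with a log2 fold change of -0.18 ± 0.13 (SE, adjusted p = 0.253). *Cdk1* (-0.11 ± 0.15, SE) and *Ccna2* (0.13 ± 0.10, SE) also stayed short of the threshold. *Cdca3*, whose product takes part in the destruction of the Cdk1 inhibitor Wee1, stood at 91.7 to 99.8 rpm on day 4 and at 62.2 to 72.4 rpm on day 7, without overlap, and fell by 0.51 ± 0.14 on the log2 scale (SE, adjusted p = 0.00561).

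Spindle motors and microtubule proteins changed in both directions. *Nusap1*, a protein that bundles microtubules around chromosomes (chr2:119618298-119651244, plus strand), stood at 134, 133, 130, 140 and 155 rpm on day 4 in Nons, Smarcc1.6, Smarcc1.7, Smarca4.4 and Smarca4.6. It reached 229, 210, 213, 226 and 227 rpm on day 7, and the log2 fold change was 0.69 ± 0.14 (SE, adjusted p = 0.00077). *Prc1*, which cross-links the antiparallel microtubules of the midzone (chr7:80294450-80316259, plus strand), went from between 160 and 186 rpm to between 247 and 293 rpm, a log2 fold change of 0.60 ± 0.11 (SE, adjusted p = 0.000503). *Kif4*, the motor that partners Prc1 there, went from between 57.5 and 59.0 rpm to between 73.8 and 86.7 rpm (0.46 ± 0.15, SE, adjusted p = 0.0143). *Kif20a* (chr18:34624624-34633265, plus strand) went the other way. It stood at 351, 380, 389, 408 and 398 rpm on day 4 and at 244, 241, 241, 268 and 267 rpm on day 7, a log2 fold change of -0.60 ± 0.11 (SE, adjusted p = 0.000284). *Kif2c*, the kinesin-13 that removes tubulin from microtubule ends, also fell, from between 149 and 171 rpm to between 102 and 126 rpm (-0.44 ± 0.10, SE, adjusted p = 0.00184). In this group of 9 motors and microtubule proteins, 3 rose, 2 fell and 4 did not pass. *Anln*, anillin, which organizes the cleavage furrow, went from between 137 and 159 rpm to between 191 and 230 rpm (0.51 ± 0.17, SE, adjusted p = 0.0195).

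Subunits of the Ndc80 complex, which holds microtubules at the kinetochore, had unequal changes. *Spc24* (chr9:21755442-21760286, minus strand) stood at 60.8, 59.8, 55.1, 63.3 and 73.6 rpm on day 4 and at 40.2, 41.6, 29.8, 48.7 and 34.9 rpm on day 7. The days did not overlap, and the log2 fold change was -0.68 ± 0.20 (SE, adjusted p = 0.00992). *Ndc80* lay between 55.2 and 64.7 rpm on day 4 and between 72.2 and 87.2 rpm on day 7, also without overlap, but its change of 0.33 ± 0.17 (SE) had an adjusted p of 0.103. *Nuf2* (-0.20 ± 0.15, SE) and *Spc25* (0.15 ± 0.17, SE) overlapped between these days and did not pass. The difference between subunits was not tested.

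Checkpoint genes and partners of the anaphase-promoting complex made up the rest of the calls. *Mad2l1*, Mad2, the checkpoint protein that binds Cdc20, stood at 181, 173, 183, 181 and 201 rpm on day 4 and at 139, 112, 100.2, 137 and 142 rpm on day 7 (-0.53 ± 0.17, SE, adjusted p = 0.017). Its highest value, 332 rpm, was in Smarcc1.6 on day 5. *Bub3*, which brings checkpoint kinases to the kinetochore, went from between 193 and 210 rpm to between 139 and 178 rpm (-0.35 ± 0.13, SE, adjusted p = 0.0307). *Ube2c* went from between 168 and 192 rpm to between 118 and 153 rpm (-0.38 ± 0.15, SE, adjusted p = 0.0434) and *Cdc20* from between 340 and 384 rpm to between 238 and 358 rpm (-0.31 ± 0.13, SE, adjusted p = 0.0454). *Pttg1* rose, from between 11.2 and 17.4 rpm to between 17.7 and 24.9 rpm (0.54 ± 0.19, SE, adjusted p = 0.0224). Values of *Kif4*, *Bub3* and *Cdc20*, and of members named here that did not pass, were added after they were seen. No member of the chromosomal passenger complex passed: *Aurkb*, its kinase, changed by 0.32 ± 0.16 and *Incenp* by -0.48 ± 0.23 (log2, SE), with adjusted p of 0.1003 and 0.084.

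**Figure D3:**
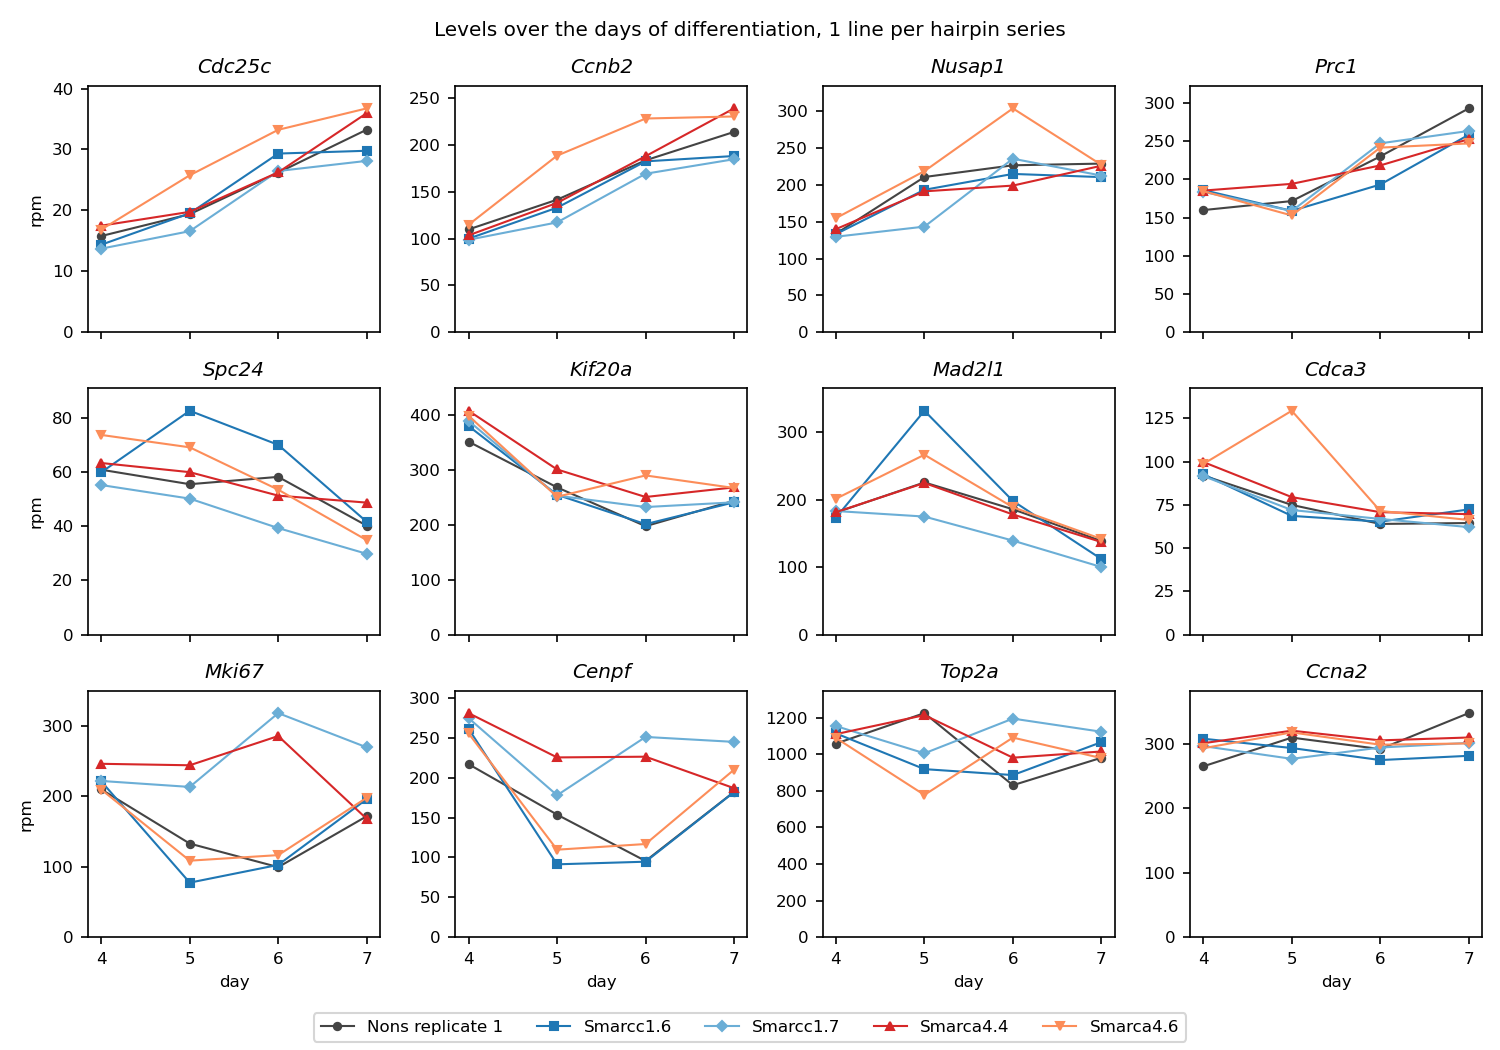
Rpm over days 4 to 7 for 12 members, 1 line per hairpin series (Nons dark grey, *Smarcc1* hairpins blue, *Smarca4* hairpins red and orange), with each vertical axis starting at 0. *Cdc25c*, *Ccnb2*, *Nusap1* and *Prc1* rise and *Spc24*, *Kif20a*, *Mad2l1* and *Cdca3* fall between days 4 and 7; *Mki67* and *Cenpf* dip on days 5 and 6 in Nons, Smarcc1.6 and Smarca4.6, and *Top2a* and *Ccna2* stay nearly level.

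By single steps, 10 members (25% against 38.7% of all genes) passed between days 4 and 5, 5 higher (19.5% of all genes) and 5 lower (19.2%). The rises were *Bub1* (0.63), *Spc25* (0.60), *Birc5* (0.51), *Nusap1* (0.49) and *Ccnb2* (0.42), and the falls *Ube2c* (-0.56), *Kif20a* (-0.51), *Anln* (-0.47), *Hmmr* (-0.47) and *Kif2c* (-0.34). *Bub1*, a checkpoint kinase, stood at 249, 227, 240, 249 and 278 rpm on day 4 and at 437, 426, 306, 418 and 307 rpm on day 5. On day 7 it stood at 259 to 301 rpm, below all 5 day 5 libraries. Between days 5 and 6, 4 members passed (10%, against 32.3% of all genes, 17% higher and 15.3% lower): *Cdc25c*, *Prc1* and *Ccnb2* rose by 0.48, 0.43 and 0.41, and *Kif2c* fell by 0.30 on the log2 scale. Between days 6 and 7, 2 members passed (5%, against 27.5% of all genes, 16.9% higher and 10.6% lower), *Anln* at 0.62 and *Kif23*, a kinesin of the central spindle, at 0.59. Full separation of the 5 libraries of each day was seen in the first step for 5 members upward and 6 downward (beside 14.7% and 17% of all genes), in the next for *Cdc25c* upward and none downward (8.53% and 6.84%), and in the last for *Aurkb* and *Anln* upward and *Bub1* downward (11.1% and 5.64%). With quantile normalization the splits of these 3 steps were 8 higher and 1 lower, 2 and 0, and 1 and 4. With libraries centred on the median gene they were 5 and 4, 1 and 1, and 1 and 4. Without hairpin Smarcc1.6 the counts were 3, 1 and 0, beside 27.1%, 23.9% and 14.8% of all genes.

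The step between days 4 and 5 was related to transcript length. Over the 40 members, whose transcripts span 947 to 11130 bases, the Spearman correlation of the change with length was -0.46, beside -0.30 over 11423 genes. Between days 6 and 7 it was 0.39, beside 0.39 over all genes, and between days 4 and 7 it was -0.13, beside 0.01. These are correlations across genes measured in the same libraries. Between days 4 and 5 the log2 fold change was above 0 for 5 of the 20 longer and 11 of the 20 shorter members. For *Smarcc1* knockdown against Nons the correlation was 0.44, beside 0.24 over all genes, and in *Smarca4* knockdown 0.20, beside 0.11. The comparison of day 7 with day 4, whose libraries all lay above 0 in the long-minus-short difference, thus carried little relation with length among the members. With the length trend removed, 22 members passed between days 4 and 7, 7 higher and 15 lower, beside 72.5% of all genes. *Mad2l1* was not among them (-0.63, adjusted p = 0.104). In the step from day 4 to day 5 *Birc5* was then not called (0.14, adjusted p = 0.231) and *Spc25* changed by 0.31. *Cdca3*, *Cdc20*, *Bub1b*, *Cenpf* and *Cdca8* newly passed there as lower (-0.39 to -0.26), beside 45.5% of all genes called. From day 6 to day 7 *Kif23* was not called (0.39, adjusted p = 0.0522). *Ccnb1*, *Bub1*, *Bub3*, *Mad2l1*, *Cenpa* and *Kif11* newly passed in that step as lower (-0.92 to -0.30). *Ccnb2*, *Ube2c* and *Aurkb* newly passed in it as higher (0.27 to 0.72), beside 31.8% of all genes called.

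**Figure D4:**
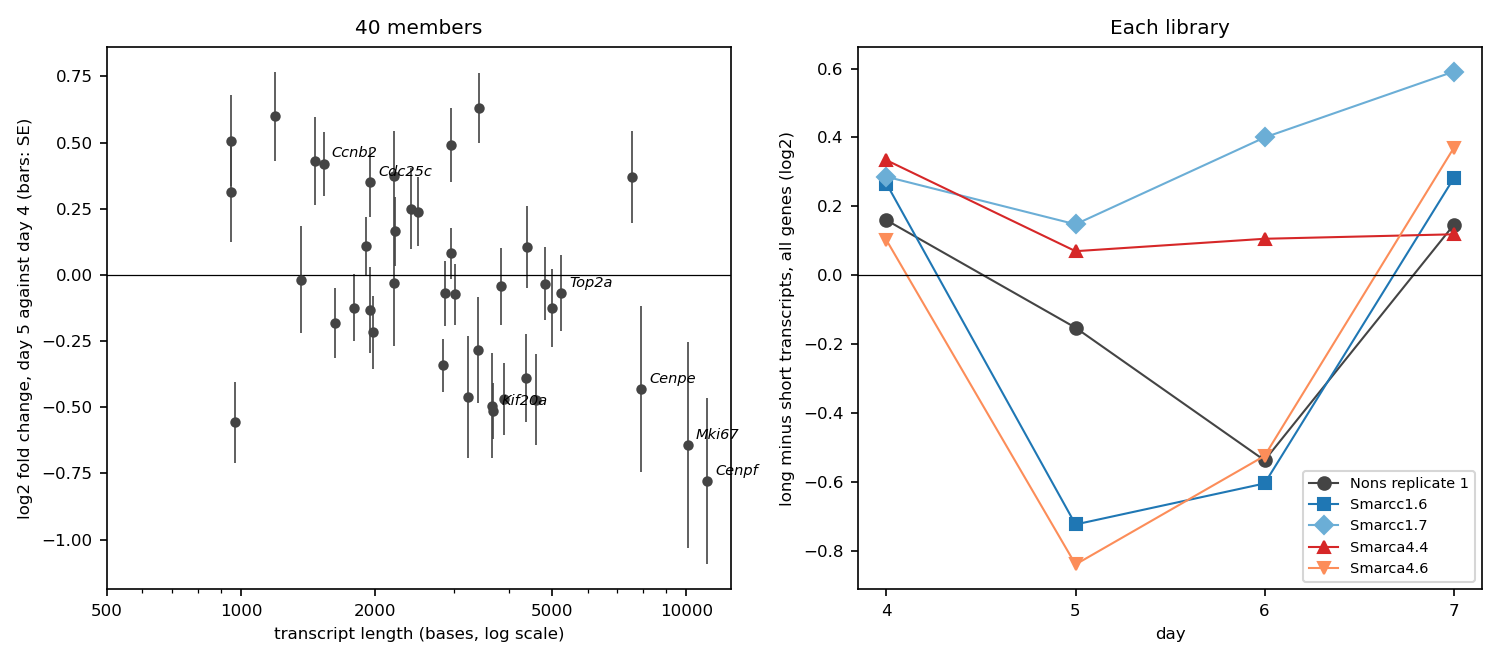
Left, log2 fold change between days 4 and 5 (bars, SE) against transcript length (log axis) for the 40 members; the longest, *Cenpf* and *Mki67*, are among the lowest. Right, mean of transcripts of at least 4522 bases minus that of transcripts of at most 1951.5 bases (log2, all genes) in each library by day; Smarcc1.6 and Smarca4.6 on days 5 and 6 and Nons on day 6 lie between -0.84 and -0.52, and the other libraries between -0.15 and 0.59.

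Promoters of members share short letter patterns, which were looked up because transcripts of this group are known to be controlled through the CHR. In the RefSeq table of promoters (GRCm38.p6), 32 of 40 members were listed, and 29 had a start site within 500 bases of the gene start used here. In windows from 250 bases before to 50 bases after the start site, both strands, the CHR letters TTTGAA occurred in 21 of 29 members (72.4%), beside 11.1% of the promoters of 8346 tested genes. They began within 50 bases of the start site in 20 of the 29 (69.0%), beside 2.78%. CCAAT occurred in 22 of 29 (75.9%, beside 39.9%) and at least 2 copies in 16 (55.2%, beside 15.7%). The CHR variant TTCGAA occurred in 3 of 29 (10.3%, beside 2.17%). The E2F letters TTCCCGC occurred in none of the 29 (beside 9.17%) and TTGGCGC in 3 (10.3%, beside 4.78%). TTGGCGC shares letters with the reverse of CCAAT, so these matches can overlap. A match is a run of letters and not a proven site, and the table does not hold every member.

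The 5 promoters below show these patterns in members whose values are given above, 2 that rose between days 4 and 7 (*Ccnb2* and *Prc1*), 1 that fell (*Ube2c*) and 2 that did not pass (*Cenpf* and *Ttk*). Each sequence is the 180 bases before the start site, 5′ to 3′ in the direction of the gene, in lower case with whole matches to TTTGAA and CCAAT on either strand in capitals. They lie at chr9:70421555-70421734 (minus strand) for *Ccnb2*, chr7:80294271-80294450 (plus) for *Prc1*, chr2:164769749-164769928 (plus) for *Ube2c*, chr1:189688087-189688266 (minus) for *Cenpf* and chr9:83834509-83834688 (plus) for *Ttk*, in GRCm38.p6.
Ccnb2: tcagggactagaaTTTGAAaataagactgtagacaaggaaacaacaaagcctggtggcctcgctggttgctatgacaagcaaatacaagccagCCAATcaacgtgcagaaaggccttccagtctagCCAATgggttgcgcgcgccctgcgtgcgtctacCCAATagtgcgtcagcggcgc
Prc1: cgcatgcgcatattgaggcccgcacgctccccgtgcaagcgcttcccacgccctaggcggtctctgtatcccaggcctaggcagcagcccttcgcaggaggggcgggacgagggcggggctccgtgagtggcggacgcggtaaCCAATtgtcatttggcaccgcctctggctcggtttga
Ube2c: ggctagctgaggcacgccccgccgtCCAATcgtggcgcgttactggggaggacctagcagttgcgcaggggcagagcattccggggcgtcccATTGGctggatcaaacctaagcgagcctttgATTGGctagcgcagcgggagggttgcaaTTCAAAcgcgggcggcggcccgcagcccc
Cenpf: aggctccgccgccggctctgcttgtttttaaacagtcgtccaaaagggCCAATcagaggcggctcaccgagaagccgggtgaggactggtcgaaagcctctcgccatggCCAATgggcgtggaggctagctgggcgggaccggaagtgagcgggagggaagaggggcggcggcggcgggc
Ttk: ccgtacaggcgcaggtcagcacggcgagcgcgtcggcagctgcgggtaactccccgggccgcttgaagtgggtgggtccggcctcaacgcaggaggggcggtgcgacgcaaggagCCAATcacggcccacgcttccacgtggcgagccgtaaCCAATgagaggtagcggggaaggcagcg
*Ccnb2* has 3 CCAAT boxes, each 33 bases from the next, and CHR letters 167 bases before and 4 bases after the start. *Ube2c* has CHR letters 29 bases before the start, on the opposite strand, with a CCAAT box 28 bases upstream of them. In *Prc1* the CHR letters begin 5 bases before the start and run across it, so they are not in capitals here. In *Cenpf* and *Ttk* they begin 2 and 7 bases after the start, beyond the printed stretch. *Anln*, also among the named members, has its CHR letters 21 and 28 bases after the start and no CCAAT box in the window. These promoters were chosen for their CHR letters. That the letters were found both in members that rose and in 1 that fell therefore follows from the choice. Among other members named for their change between days 4 and 7, *Nusap1*, *Pttg1* and *Mad2l1* had none of these patterns in the window. *Cdc25c*, *Spc24*, *Kif20a*, *Cdca3* and *Kif2c* were not among the members searched.

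Of the 40 members, 9 overlap a gene on the other strand, among them *Cdc25c* with *Gm3550*, *Kif20a* with *Cdc23*, *Nusap1* with *Oip5*, *Kif4* with *Pdzd11*, *Cdc20* with *Elovl1*, *Ube2c* with *Tnnc2* and *Bub3* with *Fgfr2*. The sources used here do not state whether reads were counted by strand, so reads of these pairs may not be separated. *Cdc23*, a subunit of the anaphase-promoting complex, had a log2 fold change of -0.51 ± 0.10 (SE) between days 4 and 7, beside -0.60 for *Kif20a*.

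Other genes of mitosis were examined as 6 lists of 109 genes, of which 105 were in the table and tested. In *Smarcc1* knockdown 4 of 105 passed (3.81%, beside 10.6% of all genes) and in *Smarca4* knockdown 5 of 105 (4.76%, beside 6.71%). *Mybl2*, which encodes B-Myb, the activator of these promoters, was higher in both, at 0.65 ± 0.14 and 0.62 ± 0.14 (log2, SE, adjusted p = 0.0076 and 0.0163). *E2f1*, a transcription factor of S phase entry, was higher in *Smarcc1* knockdown (0.64 ± 0.16, adjusted p = 0.0224). *Cenpm*, a protein of the inner kinetochore, was higher in *Smarcc1* knockdown (1.07 ± 0.17, adjusted p = 0.00155), and *Cenpo*, of the same network, in *Smarca4* knockdown (0.47 ± 0.10, adjusted p = 0.018). *Zwint*, an outer kinetochore protein, was lower in both (-0.43 ± 0.10 and -0.38 ± 0.10, adjusted p = 0.0154 and 0.0425). In *Smarca4* knockdown *Cdkn1a*, the inhibitor p21, was lower (-0.48 ± 0.11, adjusted p = 0.0182), as was *Ckap2*, a spindle microtubule protein (-0.51 ± 0.12, adjusted p = 0.0215). Some pluripotency markers also passed, all of them higher. In *Smarcc1* knockdown these were 5 of 8 (*Sox2*, *Nanog*, *Klf4*, *Esrrb* and *Zfp42*, 0.45 to 1.84). In *Smarca4* knockdown they were 3 of 8 (*Nanog*, *Esrrb* and *Zfp42*, 0.78 to 1.24). All of these but *Sox2* also passed with the hairpin series as a block. *Pou5f1* (0.05), *Tdgf1* (-0.30) and *Dppa5a* (0.67) did not pass in *Smarcc1* knockdown. In *Smarca4* knockdown *Pou5f1* (-0.51), *Tdgf1* (-0.55), *Sox2* (0.07), *Klf4* (0.69) and *Dppa5a* (0.63) did not pass. Of the 6 early differentiation markers tested, *Gata4* was higher and *Fgf5* and *Otx2* were lower in both knockdowns. Of these calls only that of *Fgf5* in *Smarcc1* knockdown held with the hairpin series as a block (adjusted p = 0.021). Of the 5 fibroblast markers, *Dcn*, at a median of 0.957 rpm, was lower in both knockdowns (-2.95 and -2.37, adjusted p = 0.00195 and 0.0127). *Col1a1* was higher in *Smarcc1* knockdown only (1.32, adjusted p = 0.0423). *Col1a2*, *Thy1* and *Pdgfrb* did not pass in either. With the block only *Dcn* in *Smarcc1* knockdown was left (adjusted p = 0.0199). The part of these markers in the calls was not tested. Of the 9 calls in the 6 lists, *Cenpm* in *Smarcc1* knockdown was the 1 left with the hairpin series as a block, at an adjusted p of 0.0147. Without day 7 none of the 9 calls passed, with adjusted p from 0.0517 for *Cenpm* to 0.514 for *Ckap2*. All 5 calls in *Smarca4* knockdown were also lost without either *Smarca4* hairpin (adjusted p between 0.0913 and 0.216). In *Smarcc1* knockdown *Zwint* was lost without either *Smarcc1* hairpin (0.0523 and 0.125) and *E2f1* without Smarcc1.7 (0.105).

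Between days 4 and 7, 49 of these 105 genes passed (46.7%, beside 64.5% of all genes), 14 higher and 35 lower. Among the 16 regulators of the MuvB, Myb, Foxm1 and E2F families, 2 rose and 7 fell, led by *E2f2* (-2.18 ± 0.30) and *Mybl2* (-1.44 ± 0.15). Of 15 subunits and regulators of the anaphase-promoting complex 2 rose and 6 fell, led by *Cdc16* (1.05 ± 0.16) and *Cdc26* (-1.02 ± 0.19). Of 10 gatekeepers of G2, 2 rose and 4 fell, and the phosphatase genes *Cdc25a* (-1.14 ± 0.17) and *Cdc25b* (0.91 ± 0.19) led in opposite directions. Of 20 genes of condensin, cohesin and separase, 3 rose and 4 fell, led by the cohesin subunit *Stag1* (1.42 ± 0.16) and by *Espl1*, separase (-0.91 ± 0.30), which was not called without either *Smarca4* hairpin. Of 23 further centromere and kinetochore genes, 3 rose and 8 fell, led by *Cenpm* (-2.09 ± 0.19) and *Cenpw* (-1.26 ± 0.21). Of 21 further spindle, centrosome and cytokinesis genes, 2 rose and 6 fell, led by the centriole genes *Cep152* (-0.92 ± 0.30) and *Sass6* (-0.77 ± 0.14). All values in this paragraph are log2 fold changes with their SE.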

How the data were processed

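Per the paper's methods and the labels, RNA libraries (TruSeq) were sequenced as single-end reads of 75 bases, trimmed with trim_galore, aligned to mm10 with TopHat or HISAT2 and quantified per gene with SeqMonk. The annotation release and the strand setting are not given in the sources used here. The deposited values are log2 rpm, in which genes with no read share a floor particular to the library. Values under 1000 reads came back as whole reads within 0.02 in 100% of cases, which gave the library totals. Values were compared with limma 3.58.1 (R 4.3.3; limma-trend) in a fit of 12 means, 1 for each group and day, with 8 residual degrees of freedom. The 13296 genes that averaged 0 log2 rpm or more were tested, and p-values were adjusted by Benjamini-Hochberg over all of them at a threshold of 0.05. Knockdown contrasts were averaged over days and day contrasts over groups. The fit was tested on simulated data with independent noise in each library. These data held no trend with transcript length and no correlation within a hairpin series, so that test does not bear on either.

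Of 24 samples in the labels, 4 (the other Nons series) had no column used and are not analysed here. Members and lists were chosen with earlier results of these data known. Named genes were the 2 targets, every member past the threshold in a knockdown comparison, the 6 largest rises and 6 largest falls between days 4 and 7, the member with the largest knockdown change in each role group, and up to 2 genes past the threshold in each further list. Promoters were those of up to 6 named members with CHR letters, outside chromosome 18, and were printed only before the start site. Transcript lengths are those of the longest principal transcript in GENCODE M21, found for 11423 of the genes tested. Alternatives were other filters, scalings, a pseudocount of 1 rpm, limma-voom on the recovered reads, a model without the interaction of group and day, the hairpin series as a block, and leaving out libraries, series or days.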

Additional observations from a re-analysis of the deposited data

How the results depend on the processing

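Under the alternatives run for the 9 counts of members, 114 values stayed within 1.5 times the reported count and 43 did not. Of the values of named genes recomputed under each alternative, none changed its sign, 701 kept their side of the threshold, 90 lost it and 9 gained it. Over all 40 members, removal of the length trend turned the sign of 37 of 240 changes, 0 of them past the threshold in either fit, among them *Ccna2* between days 4 and 7 (0.13 to -0.0053) and *Ube2c* in *Smarcc1* knockdown (-0.07 to 0.01). For the values below the cause was not tested, except that fewer libraries or genes entered some fits by construction. Leaving out a hairpin series, a library or a day also moved the share of all genes called. It ran from 2.85% to 14.2% for *Smarcc1* knockdown, 0.993% to 8.6% for *Smarca4* knockdown and 0.369% to 8.02% for their contrast. For day 7 against day 4 it ran from 57.1% to 70.4%. For the single steps in order of days it ran from 23.9% to 43.9%, 21.6% to 31.9% and 7.98% to 41.1%.

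For the counts of 0, leaving out a hairpin series, a library or a day gave 0 to 1 members for *Smarcc1* knockdown (1 without day 5), 0 for *Smarca4* knockdown, 0 to 3 for the contrast of knockdowns (3 without Smarca4.4 on day 5), and 0 for both interactions. For the day comparisons the same settings gave 8 to 17 members for day 7 against day 4 (9 without hairpin Smarca4.4 and 8 without Smarca4.6), 3 to 16 for day 5 against day 4 (3 without Smarcc1.6, 5 without Smarca4.4, 4 without Smarca4.6 and 16 without day 6), 1 to 5 for day 6 against day 5 (1 without either *Smarcc1* hairpin and 2 without either *Smarca4* hairpin, day 4 or day 7) and 0 to 9 for day 7 against day 6 (4 without Smarca4.4 on day 5, 6 without Smarcc1.7, 9 without day 5, and 0 without any other hairpin or day 4).

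Without the interaction of group and day, 17, 8 and 9 members passed in the steps from day 4 to 5, 5 to 6 and 6 to 7. The shares of all genes were 47.8%, 39.4% and 36.9%. Centring on the median gene gave 2 for day 6 against day 5 and 5 for day 7 against day 6, beside 32.7% and 27.7%. Quantile normalization gave 2 and 5, beside 32.6% and 28.1%. Without a filter, 1 passed for day 7 against day 6, beside 12.9%.

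After removal of the length trend, chosen after seeing the data, 2 members passed in *Smarcc1* knockdown and 2 in the contrast of knockdowns, and 8 and 10 in the steps from day 5 to 6 and day 6 to 7. The shares of all genes were 16.4%, 8.74%, 43.5% and 31.8% in that order. Without the 4 hairpin libraries low in long transcripts, also chosen after seeing the data, the counts were 22 for *Smarcc1*, 13 for *Smarca4*, 5 for their contrast, 30, 21, 15 and 17 for day 7 against 4, day 5 against 4, day 6 against 5 and day 7 against 6, and 1 for each interaction (*Spc25* and *Hmmr*). The share of all genes called rose too, to 57.1%, 42.8%, 20.7%, 82.7%, 61.4%, 56.3% and 49.7% in that order, and to 11.6% and 3.22% for the interactions. That fit estimates the spread from days 4 and 7 and assumes that lone libraries vary like them. It keeps Nons on day 6, also low in long transcripts, as the only control of its day.

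With the hairpin series followed over days as a replicate block, 8 members passed for day 7 against day 6 and 17 for day 7 against day 4. The shares of all genes were 38.4% and 68.7%. No count of 0 changed. For these counts the share of all genes was 4.55% in *Smarcc1* knockdown, 1.94% in *Smarca4* knockdown and 0.79% in their contrast. For the interactions it was 1.32% and 0.15%. The labels give no pairing beyond the hairpin number: between days, the deviations of a gene's hairpins correlated over genes at -0.21 to 0.82, above 0.1 in 6 of 12 pairs of days. A Nons group of 1 library per day, and totals down to 6829596 reads, limit the precision of every knockdown comparison.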
